A study of Homo sapiens with 10 samples.

Results

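The glycolysis genes described here are 10 genes that carry glucose to lactate: SLC2A1, HK1, HK2, GPI, PFKP, ALDOA, GAPDH, ENO1, PKM and LDHA. They were chosen by name and not by a cutoff on measured values, though earlier results of these data were known. All 10 were found among the 19222 protein-coding genes of chromosomes 1 to 22 in GENCODE release 44 on GRCh37 (hg19). Each has between 3 and 25 distinct annotated transcript starts, 152 in all. Peaks were listed at every start with 1 kb on each side, along the gene body outside those windows, and up to 5 kb past the 3′ end of the gene.

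The series mapped KAP1, the 7SK ribonucleoprotein and RNA polymerase II (Pol II) on the genome of HCT116, a human colorectal carcinoma cell line grown in standard serum medium. Its 10 ChIP-seq libraries, which sequence the DNA crosslinked to a protein and pulled down with an antibody, comprise 1 per target with no replicate, and the labels name no treatment or genotype. Peak lists of total Pol II (pulled down by its N-terminal region), KAP1, Larp7, Hexim1 and Cdk9 were used, and the libraries for serine-5-phosphorylated Pol II, H3K4me3, H3K4me1, H3K27ac and input DNA were not analysed here. The labels call the cells colonic endothelial, whereas the line is epithelial. Pol II peaks stood at a start of 9 of 12 colon epithelium marker genes, all but CDH17, KRT20 and VIL1. They stood at a start of 4 of 9 endothelium marker genes. The share over all coding genes was 78.6%, so the epithelial count was no higher than for coding genes at large.

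Glycolysis splits glucose into pyruvate in the cytosol and yields ATP and NADH, and lactate dehydrogenase turns pyruvate into lactate while renewing NAD+. Tumour cells commonly run it at a high rate, and several of its genes are known targets of hypoxia-inducible factors and of MYC. Most Pol II pauses just past a gene's start until the kinase Cdk9, with its cyclin partner, releases it. Larp7 holds the 7SK RNA, Hexim1 inhibits Cdk9 within that complex, and KAP1 (TRIM28) has been described as a protein that tethers the complex to promoters.

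The lists hold 92939 Pol II, 61312 KAP1, 184243 Larp7, 229679 Hexim1 and 120115 Cdk9 peaks, with a median width of 287 bp for Pol II and 427 to 513 bp for the other 4. The fold of a peak is the authors' value for its enrichment over background, and it was compared only with other peaks of the same list. Read depth is not given in the sources used here, so no interval reflects it. Every value comes from 1 library, and none has a replicate error.

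The promoter sequences that follow are the 250 bases before a start, read from GRCh37 in the direction of the gene. They are the reference sequence, not that of HCT116. Capitals mark ACGTG or GCGTG on either strand (so CACGT or CACGC also appears), the core of the element that hypoxia-inducible factors are known to bind. CACGTG is an E-box that MYC is known to bind. Matches that overlap, as in CACGTG or CACGCGTG, count as 1 site. HK1 is shown at 2 starts because all 5 lists have a peak at one and KAP1 alone at the other, LDHA for its copies of CACGTG, HK2 as an example with 3 sites, and the GPI 5′ end for its 7 sites beside a second, canonical start with 1.
HK1, annotated 5′ end, chr10:71029490-71029739, plus strand: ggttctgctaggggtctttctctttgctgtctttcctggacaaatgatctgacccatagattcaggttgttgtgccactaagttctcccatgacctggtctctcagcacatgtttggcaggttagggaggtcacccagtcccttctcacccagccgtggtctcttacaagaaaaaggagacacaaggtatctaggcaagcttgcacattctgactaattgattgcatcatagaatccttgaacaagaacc
HK1, canonical start, chr10:71078353-71078602, plus strand: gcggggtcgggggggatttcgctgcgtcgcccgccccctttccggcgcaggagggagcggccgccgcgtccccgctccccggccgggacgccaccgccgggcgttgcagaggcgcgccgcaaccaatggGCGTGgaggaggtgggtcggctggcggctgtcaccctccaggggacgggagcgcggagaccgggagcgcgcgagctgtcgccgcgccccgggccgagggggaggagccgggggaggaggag
LDHA, canonical start, chr11:18415860-18416109, plus strand: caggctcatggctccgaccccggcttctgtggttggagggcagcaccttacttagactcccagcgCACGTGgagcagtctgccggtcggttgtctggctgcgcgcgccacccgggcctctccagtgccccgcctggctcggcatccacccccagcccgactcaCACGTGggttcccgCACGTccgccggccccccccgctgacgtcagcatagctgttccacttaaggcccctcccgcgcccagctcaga
HK2, canonical start, chr2:75061004-75061253, plus strand: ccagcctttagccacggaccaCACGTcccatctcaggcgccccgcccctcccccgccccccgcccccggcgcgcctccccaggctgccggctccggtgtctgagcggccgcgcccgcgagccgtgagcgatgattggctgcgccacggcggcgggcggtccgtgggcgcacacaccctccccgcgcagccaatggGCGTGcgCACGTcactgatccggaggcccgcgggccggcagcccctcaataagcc
GPI, annotated 5′ end, chr19:34850135-34850384, plus strand: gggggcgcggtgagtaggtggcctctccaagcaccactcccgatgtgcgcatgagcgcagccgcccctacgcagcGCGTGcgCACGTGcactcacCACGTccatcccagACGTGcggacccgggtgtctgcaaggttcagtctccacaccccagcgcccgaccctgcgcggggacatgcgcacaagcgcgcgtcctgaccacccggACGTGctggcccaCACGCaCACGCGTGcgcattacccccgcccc

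In the canonical promoters, ACGTG or GCGTG was present in 7 of the 10 glycolysis genes, against 51.1% of 19218 coding gene promoters of the same length. Sites numbered 3 each in HK2, GAPDH and LDHA, 2 in ENO1, 1 each in HK1, GPI and ALDOA, and none in SLC2A1, PFKP or PKM. LDHA alone among the 10 held CACGTG, and it held 2 copies, 185 and 87 bp before its start; 7.8% of coding promoters hold at least 1. GGGCGG, the GC box, was present in 8 of 10 against 59.0% of coding promoters, CCAAT in 6 against 34.0%, and TATAAA in 2, SLC2A1 and GAPDH, against 9.41%, with both strands searched. Base composition was GC-rich throughout, 65.2 to 81.6% GC with a median of 72.2% in the glycolysis genes, against a median of 63.2% over all coding promoters. A match to these letters is a description of the sequence and not a measured binding site.

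At the annotated 5′ end of the gene, 9 of the 10 glycolysis genes carried a Pol II peak, against 71.8% of all coding genes. KAP1 was at all 10, against 66.2%. Larp7, Hexim1 and Cdk9 were each at 9. Over all coding genes Larp7 was at 76.4%, Hexim1 at 79.9% and Cdk9 at 70.5%. All 5 together stood at 9 glycolysis genes, against 61.5% of coding genes. The exception was HK1, whose annotated 5′ end carried a KAP1 peak alone, and a weak one with a deposited −log10 q of 1.71.

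When every annotated start was considered, each of the 5 factors was present at all 10 glycolysis genes. All 5 also stood within 1 kb of the canonical start in all 10, a count with no matching share over all coding genes. For any start, the shares of all coding genes were 78.6% with Pol II, 78.5% with Cdk9, 74.0% with KAP1, 85.8% with Hexim1, 83.4% with Larp7 and 70.0% with all 5. Among the 15114 coding genes with Pol II at a start, 89.0% carried all 5, and among the highest quintile of these by Pol II fold, 98.7% did. That quintile begins at a fold of 79.6 and includes 6 of the glycolysis genes. Leaving aside peaks with a deposited −log10 q under 5, the full set stood at 3 of the 10 glycolysis genes, against 12.2% of all coding genes, and Cdk9 at 3 against 18.9%.

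SLC2A1 encodes GLUT1, a glucose transporter of the plasma membrane. Its strongest start peaks had a fold of 91.5 for Pol II and 6.91 for KAP1. Cdk9 followed with 6.31, Hexim1 with 10.3 and Larp7 with 6.46. Each lay between percentiles 86.4 and 95.2 of coding genes with a start peak in its own list, so this gene was high in all 5 lists. The Pol II peak, chr1:43423398-43424895, was 1498 bp wide, its summit lay 32 bp past the canonical start in exon 1, and it also covered a start of the divergent SLC2A1-DT. A cluster of 3 internal starts, 27124 to 29394 bp into the gene, again carried all 5 factors, with a Pol II fold of 13.2 and a KAP1 fold of 5.41. The other 2 internal start regions held Pol II with Hexim1 in one and no peak in the other.

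HK1 and HK2 encode hexokinases, which phosphorylate glucose on entry, HK1 in most tissues and HK2 in muscle, fat and many tumours. HK1 spans 132 kb of chromosome 10, and its transcripts include testis and red cell forms that start upstream of the form used in most tissues. At the far upstream 5′ end, printed first above, the KAP1 peak chr10:71029378-71030095 had a fold of 3.42 and a −log10 q of only 1.71. It was overlapped by no other list. The 250 bases before that start held 47.2% GC and an observed over expected CpG ratio of 0.0722, and lay wholly under the KAP1 peak. The canonical start, 48863 bp further in, had 79.6% GC and a CpG ratio of 0.987, and its 250 bases lay wholly under peaks of all 5 factors. There HK1 had a fold of 37.0 for Pol II, the lowest of the 10 genes at percentile 45.7. Hexim1 had a fold of 9.61, Larp7 of 5.8 and KAP1 of 5.31. The last of its 8 start regions, 112733 bp in, also held all 5, with the gene's highest Cdk9 fold, 5.18. Of the remaining 5 HK1 regions, 3 held Larp7 alone, 1 held Cdk9 alone and 1 held no peak. These lone peaks were weak, with a −log10 q of 1.12 to 1.48 for Larp7 and 1.66 for Cdk9.

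HK2 had one strong Pol II start peak, of fold 72.2 and 2033 bp, covering its 5′ end and the divergent HK2-DT. Its summit lay 1005 bp past the 5′ end, 38 bp before a second annotated start, in contrast to the other genes' summits near their canonical starts. KAP1 had a fold of 4.76, Larp7 4.59, Hexim1 9.02 and Cdk9 3.9 there. Hexim1, at percentile 78.1, ranked well above Cdk9, at percentile 19.4 of its list.

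GPI, glucose-6-phosphate isomerase, carried all 5 factors at 2 upstream regions: its annotated 5′ end, and its canonical start 5716 bp further in. Pol II had a fold of 24.4 at the first and 53.3 at the second, and KAP1 had 3.45 and 7.42. The second KAP1 value is the highest of the 10 genes, at percentile 97.6, while the strongest Larp7, Hexim1 and Cdk9 peaks at GPI starts, which lay at the 5′ end, ranked between percentiles 30.5 and 32.6. Its KAP1 peak was narrow, 331 bp, and covered 113 to 443 bp past the canonical start, so it missed the Pol II summit at 29 bp. GPI was the one gene of the 10 whose KAP1 peak did not contain the Pol II summit. The 5′ end window printed above holds 7 of the marked sites, and the canonical window holds 1.

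PFKP, the platelet type of phosphofructokinase and so a subunit of the enzyme that commits sugar to glycolysis, had a Pol II fold of 94.0 in a 2708 bp peak whose summit lay 54 bp past the canonical start. KAP1 there had a fold of 4.79 over 2582 bp. PFKP also carried all 5 factors at 3 internal start regions, beginning 38391, 47125 and 62674 bp into the gene, more than any other of the 10. Its highest folds of 3 factors lay at those internal starts: KAP1 at 5.58, Larp7 at 6.39 and Cdk9 at 5.44.

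ALDOA encodes aldolase A, which cleaves fructose bisphosphate. Its 18 starts lie within 5414 bp and form 1 region that covers the whole gene. Pol II had a fold of 68.1, KAP1 4.98, Larp7 4.85, Hexim1 7.5 and Cdk9 5.29 at the starts. The Larp7 and Hexim1 peaks were 4578 and 5419 bp wide and the Pol II peak 1896 bp wide, so both extended upstream of it.

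GAPDH, which oxidises glyceraldehyde 3-phosphate, had the highest Pol II fold of the 10 genes, 127, at percentile 97.3. Its Pol II peak, chr12:6641565-6645722, was 4158 bp wide against a gene length of 3863 bp, and also covered a start of GAPDH-DT. KAP1 reached 6.54, at percentile 91.9, and Larp7, Hexim1 and Cdk9 lay between percentiles 75.7 and 82.5. The KAP1 peak began 15 bp past the canonical start, and no base of the 250 before that start lay under it, as at LDHA and GPI.

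ENO1, enolase, had a fold of 111 for Pol II, 5.4 for KAP1 and 6.16 for Cdk9. Cdk9 was at percentile 92.0 of its list and Larp7, with a fold of 4.65, at percentile 36.0. The Pol II summit lay 220 bp past the canonical start in intron 1, the farthest downstream within 1 kb. The peak covered a start of ENO1-AS1 as well.

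PKM encodes the muscle-type pyruvate kinase, spliced into the M1 and M2 forms. It had a Pol II fold of 107 and a KAP1 fold of 5.14, at percentile 58.8. Its Hexim1 fold of 13.0 was the highest of the 10 genes, at percentile 98.6, whereas Larp7, with a fold of 5.01, stood at percentile 49.7. LDHA, lactate dehydrogenase A, had a Pol II fold of 82.7, at percentile 81.6, and a Hexim1 fold of 8.44, at percentile 70.5. Its KAP1 peak was 315 bp wide with a fold of 3.56, at percentile 5.03 and the lowest of the 10, and Larp7 stood at percentile 15.1 and Cdk9 at 21.4.

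**Figure D1:**
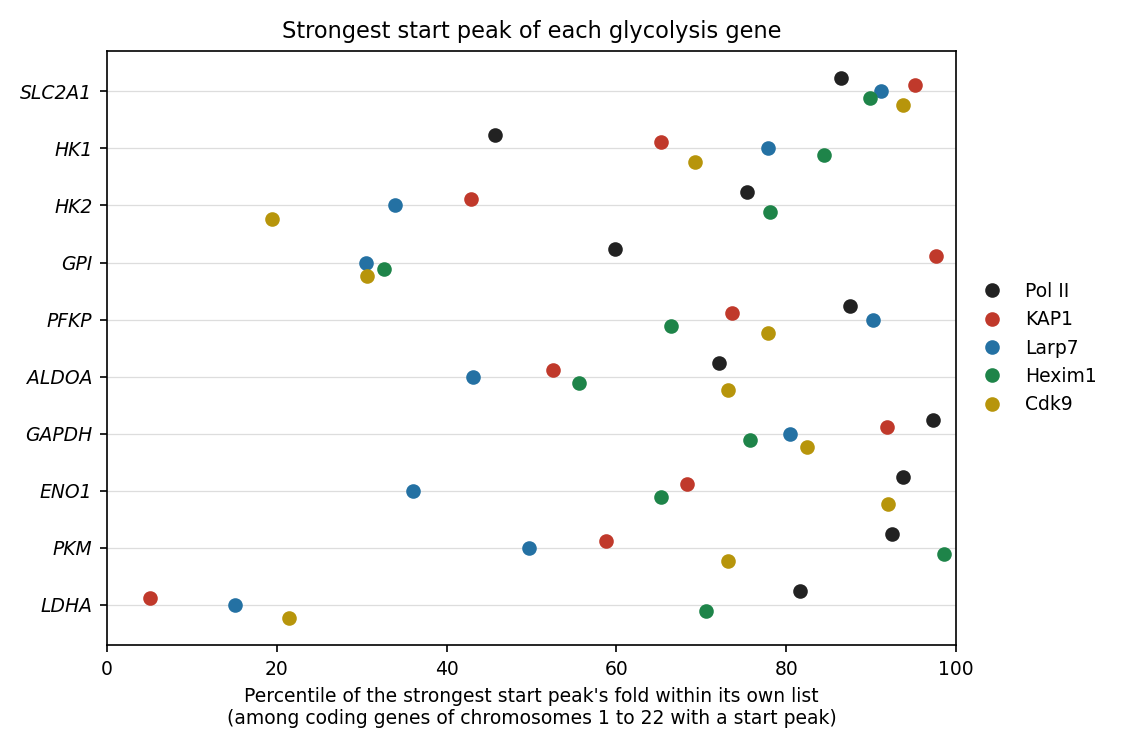
Each point is the fold of a gene's strongest start peak as a percentile (x axis) among the coding genes with a start peak in that list, with the 10 glycolysis genes down the y axis and 1 colour per factor. SLC2A1 sits at or above percentile 86.4 in all 5 lists, while LDHA runs between percentile 5.03 for KAP1 and 81.6 for Pol II.

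Across the 10 genes, the median fold of the strongest start peak was 87.1 for Pol II, against 41.8 over coding genes with a start peak. KAP1 had a median of 5.36 against 4.93 and Cdk9 of 5.29 against 4.68. Hexim1 had a median of 8.63 against 7.19 and Larp7 of 4.93 against 5.02. The glycolysis genes thus stood highest in the Pol II list, with a median percentile of 84.0, and near the middle of the Larp7 list, with 46.4. KAP1 had a median percentile of 66.8, and Hexim1 and Cdk9 73.1 each. Individual genes ran against these medians, as GPI did with KAP1 far above its Pol II percentile and LDHA with KAP1 far below.

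The strongest Pol II summit lay within 1 kb of the canonical start in 9 of the 10 genes, all but HK2, and was downstream of it in 8 of those 9, against 71.1% of coding genes with such a summit. HK1 was the exception, with its summit 300 bp upstream. The median position of the 9 was 54 bp past the start, against 64 bp over the coding genes. In 6 of the 10 genes the summit fell 29 to 57 bp past the start, in exon 1 or, for GAPDH, intron 1, where a paused polymerase is known to stand.

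Most other start regions of the same genes held fewer than 5 factors. Windows that overlap were joined, which gave 36 start regions in the 10 genes: the 10 with a canonical start and 26 others. Most of the 26 held fewer starts and were narrower than the region with the canonical start, so they had less room for a peak. The 2 kinds of region were not contrasted over all coding genes. Of the 26, 7 held all 5 factors, against 17.1% of such regions in all coding genes with Pol II at a start. A single factor was in 11 against 14.5%, and no peak in 3 against 45.9%. The single-factor regions were Pol II alone in 3 (ENO1, PKM and LDHA), Larp7 alone in 3 (all HK1), Hexim1 alone in 2 (HK2 and GPI), Cdk9 alone in 2 (HK1 and PKM) and KAP1 alone in 1 (HK1). Counted over single starts, 83.6% of the 152 had Pol II within 1 kb, against 61.6% of the distinct starts of all coding genes. Cdk9 was near 75.0% against 60.1% and KAP1 near 73.7% against 54.6%. Hexim1 was near 82.9% against 71.8% and Larp7 near 75.7% against 67.7%. Starts of 1 gene often share a peak, so they are not independent.

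In the gene bodies, the part of each gene outside all start windows, the glycolysis genes had more of their bases under Pol II peaks than coding genes at large. ALDOA has no such body, and the other 9 genes have 317367 bp together. Pol II peaks covered 6.97% of these bases, against 1.6% in all coding genes with Pol II at a start and a body. KAP1 covered 1.38% against 1.74%. Cdk9 covered 5.45% against 3.24%, Hexim1 16.4% against 8.48% and Larp7 12.8% against 6.53%. The median over genes was 13.3% against 0.759% for Pol II and 0.0% against 0.324% for KAP1. For Cdk9 it was 3.47% against 2.32%, for Hexim1 10.1% against 10.2% and for Larp7 4.79% against 6.35%, so the pooled excess of Hexim1 and Larp7 was not seen in the median gene.

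A peak placed in the body was found for Pol II in 8 of the 9 genes, against 61.1% of coding genes with Pol II at a start. For KAP1 it was 3 genes (HK2, GPI and PFKP) against 50.0%, and Larp7, Hexim1 and Cdk9 were in 7 genes each, against 78.6% with Larp7, 81.4% with Hexim1 and 71.5% with Cdk9. With windows at the starts of protein-coding transcripts only, a KAP1 body peak was in 5 glycolysis genes, against 54.3%. Longer genes offer more room for a body peak, and gene length was not matched in these shares.

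**Figure D2:**
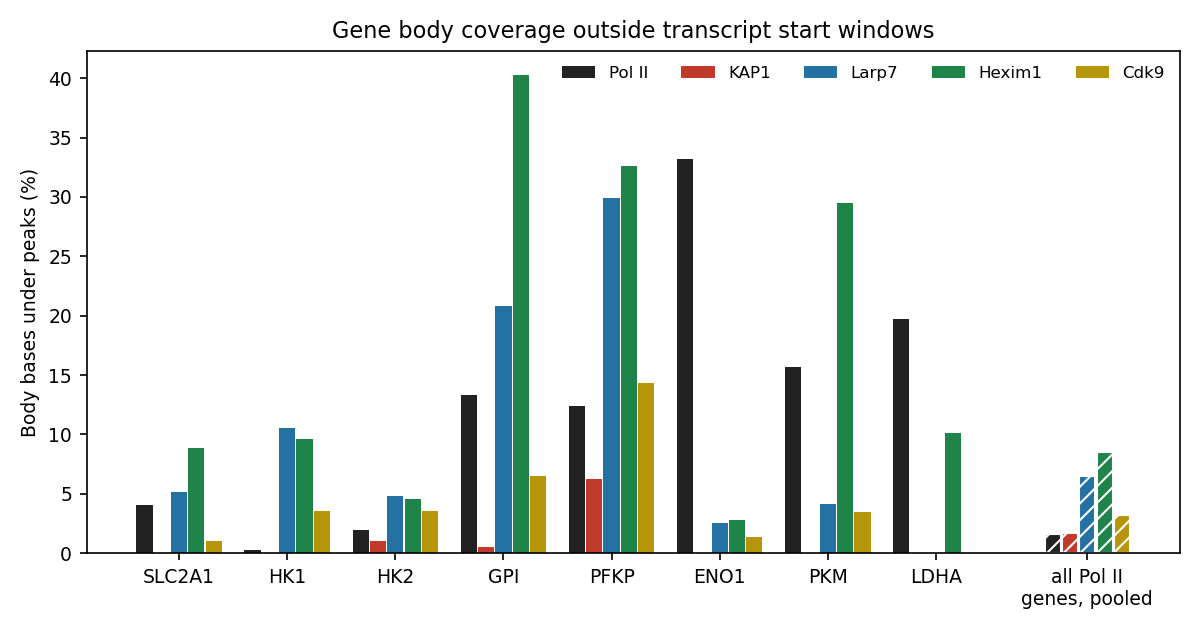
Bars give the percent of gene body bases under peaks (y axis) for the 8 glycolysis genes with over 5 kb of body and, hatched at the right, for all coding genes with Pol II at a start, pooled. Pol II reaches 33.2% in ENO1 against 1.6% in the pooled genes, and KAP1 is visible in HK2, GPI and PFKP.

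ENO1 had the highest Pol II share of the 8 genes with more than 5 kb of body, 33.2%, in 11 body peaks with folds of 3.76 to 20.7. LDHA followed with 19.7%, PKM with 15.7%, GPI with 13.3% and PFKP with 12.4%. SLC2A1 had 4.04%, HK2 1.93% and HK1 0.242%. In GAPDH the body is 769 bp and lay wholly under a second Pol II peak, of fold 25.4 and 2648 bp, that begins inside the gene and runs past its 3′ end.

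Along PFKP and GPI the body peaks were unevenly placed. PFKP had 4 Pol II body peaks in the first 50% of its length and 16 in the rest, with 2.94% and 23.0% of body bases covered. GPI had 1 and 10, with 2.52% and 22.5%, and 1 of the 10 lies at the start of another coding gene. HK2 had none and 5. These splits have no matching value over all coding genes. PFKP's strongest body peak, chr10:3166579-3167424, had a fold of 31.6 and was overlapped by all 4 other factors, and it lies between the gene's internal start regions.

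HK1 had a single Pol II body peak, of fold 7.75 and within 1 kb of its 3′ end, but 23 Larp7, 22 Hexim1 and 10 Cdk9 body peaks. Of these, 22 Larp7, 21 Hexim1 and 9 Cdk9 peaks were overlapped by no Pol II peak. In all coding genes with Pol II at a start, 78.4% of Larp7, 82.2% of Hexim1 and 67.8% of Cdk9 body peaks had no Pol II on them. Per 10 kb of body, HK1 held 1.98 Larp7, 1.9 Hexim1 and 0.863 Cdk9 peaks, beside a pooled density in the glycolysis genes of 1.17 for Cdk9, 1.99 for Hexim1 and 1.92 for Larp7. The density in all coding genes with Pol II at a start was 0.484 for Cdk9, 1.0 for Hexim1 and 0.777 for Larp7. KAP1 had no body peak in HK1. Most Larp7, Hexim1 and Cdk9 body peaks of HK1 were weak, with a −log10 q under 5. The highest was 3.66 for Cdk9, 6.32 for Larp7, on the Pol II peak, and 7.0 for Hexim1.

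**Figure D3:**
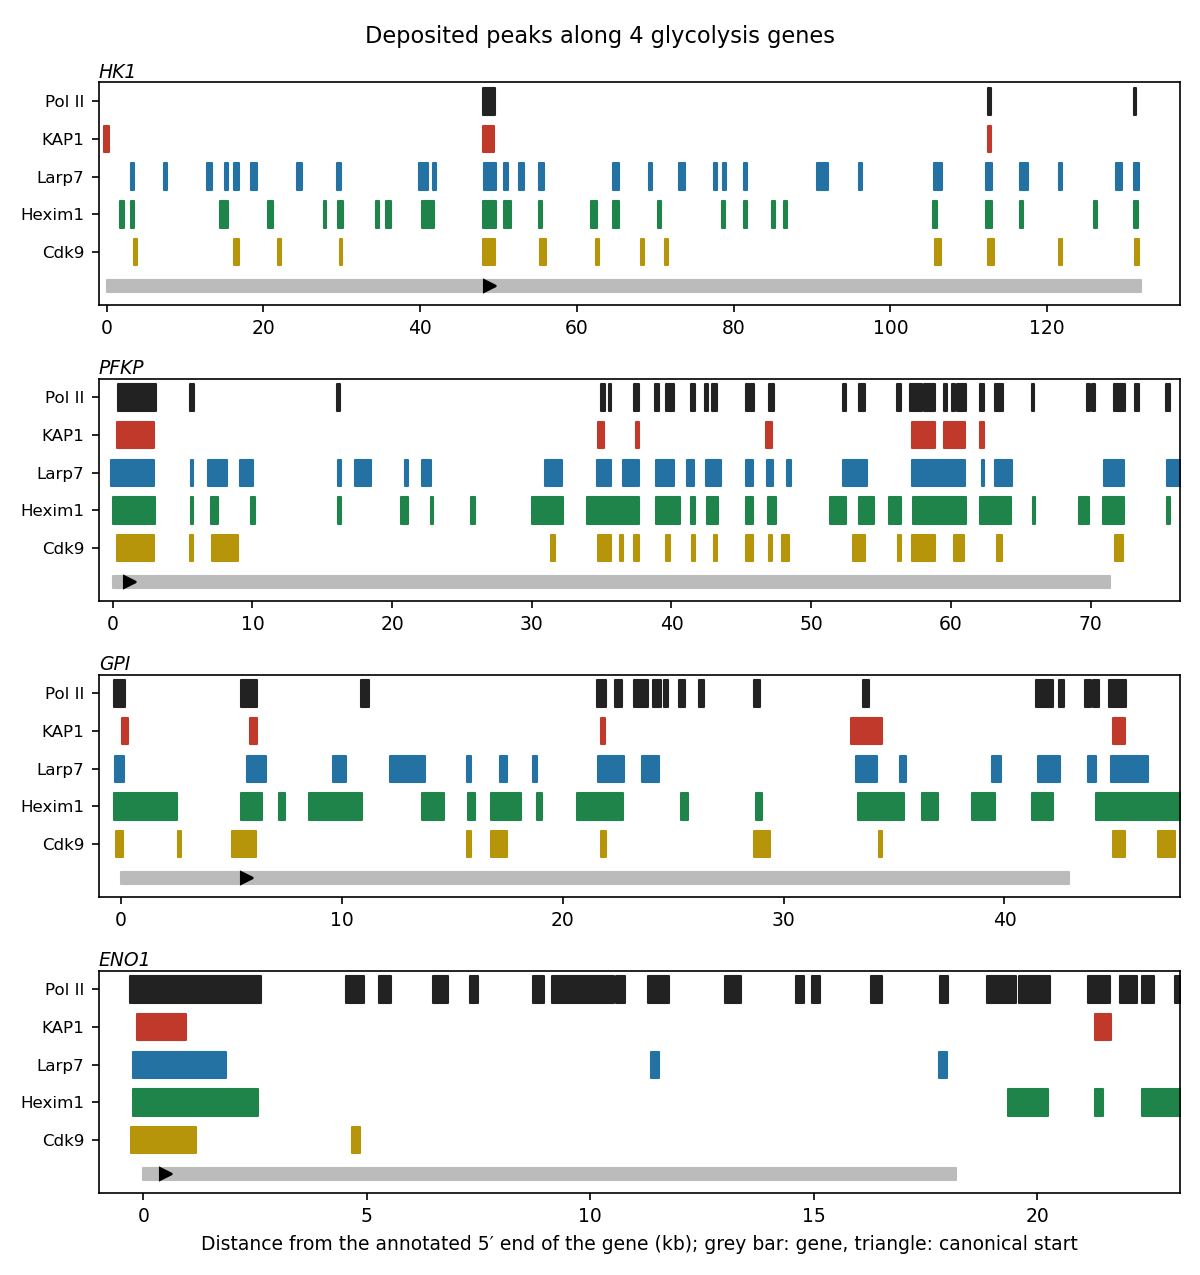
Boxes are deposited peaks of the 5 lists, 1 row each, along HK1, PFKP, GPI and ENO1, with the distance from the annotated 5′ end of the gene in kb on the x axis, the gene as a grey bar and the canonical start as a triangle. HK1 shows KAP1 alone at its 5′ end and Larp7 and Hexim1 peaks along a body with 1 Pol II peak, PFKP shows all factors clustered again in its later part, and ENO1 shows 11 Pol II body peaks with few others.

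The Pol II peaks of the bodies were also compared by which other factors overlapped them by at least 1 bp. After leaving out 2 peaks at the start of another coding gene, 1 in GPI and 1 in PKM, 63 remained in the glycolysis genes. KAP1 overlapped 9 of them, 14.3% (exact Clopper-Pearson 95% interval 6.75 to 25.4%), against 50.0% of the 37507 such peaks in all coding genes with Pol II at a start. Larp7 overlapped 50.8% (37.9 to 63.6%) against 79.1%, Hexim1 61.9% (48.8 to 73.9%) against 85.6%, and Cdk9 34.9% (23.3 to 48.0%) against 61.0%. No other factor overlapped 25.4% (15.3 to 37.9%), against 9.58%, and all 4 overlapped 12.7% (5.65 to 23.5%), against 44.1%. These intervals cover counting error only, and the peaks come from 8 genes and are not independent of each other.

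The peaks compared had a median width of 254 bp against 250 bp and a median fold of 6.91 against 5.8. In the highest decile of coding genes by Pol II body coverage, which begins at 25.0% and holds 1491 genes, KAP1 overlapped 64.4% of body Pol II peaks, Larp7 87.6%, Hexim1 91.6% and Cdk9 73.3%, and no factor 5.67%. Of the glycolysis genes that decile holds ENO1 and GAPDH, and GAPDH has none of the 63 peaks. This comparison was added after the data were seen.

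The genes differed among themselves. The 9 Pol II peaks with KAP1 were in PFKP (6 of its 20), HK2 (2 of its 5) and GPI (1 of its 10). In ENO1, 8 of 11 Pol II body peaks were overlapped by no other factor, and in LDHA 3 of 4. In PKM, Hexim1 overlapped 7 of 8 and Larp7 and Cdk9 none. The PKM peak left out, of fold 91.5 and overlapped by all 4 factors, straddles the gene's 3′ end and covers the start of the neighbour GRAMD2A. Without PFKP, which holds 20 of the 63 peaks, the share with KAP1 was 6.98% and that with Cdk9 18.6%, and Larp7 and Hexim1 stood at 34.9% and 46.5%. With peaks of a −log10 q of at least 5 alone, KAP1 overlapped 2.13% of body Pol II peaks in the glycolysis genes against 4.86% in all coding genes with Pol II at a start, with 1 of 47 peaks in the glycolysis genes.

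**Figure D4:**
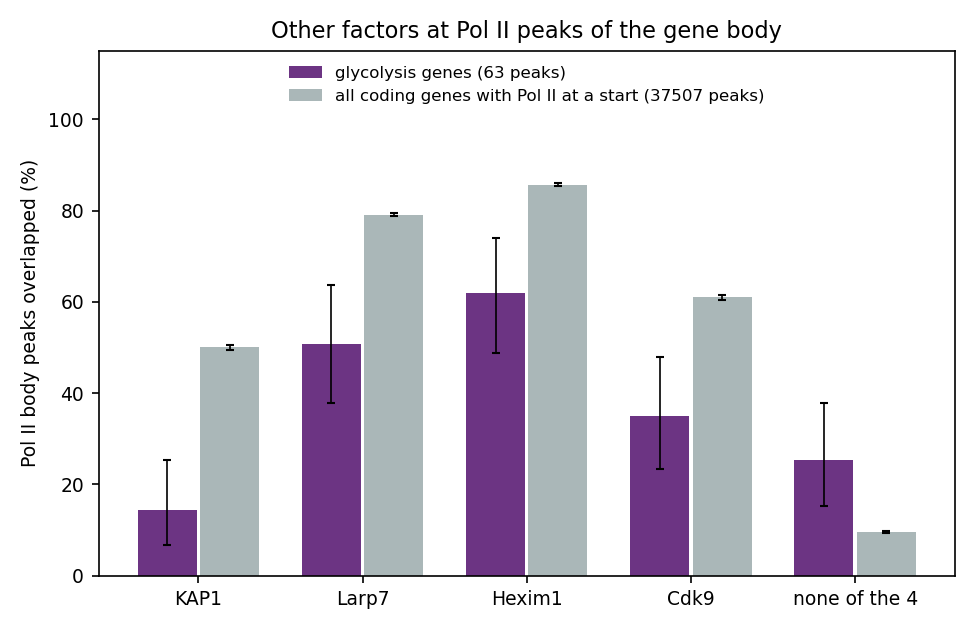
Bars give the percent of Pol II body peaks (y axis) that each other factor overlapped, with the 63 peaks of the glycolysis genes at the left of each pair and the 37507 peaks of all coding genes with Pol II at a start at the right, and lines are exact 95% binomial intervals. KAP1 overlapped 14.3% against 50.0%, and peaks with none of the 4 made up 25.4% against 9.58%.

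Seen from the other factors, 85.7% of the 7 KAP1 body peaks of the glycolysis genes were overlapped by Pol II, against 59.1% of those of all coding genes with Pol II at a start. Pol II overlapped 48.6% of 37 Cdk9 peaks against 32.2%, 39.7% of 63 Hexim1 peaks against 17.8%, and 37.7% of 61 Larp7 peaks against 21.6%. The body peaks without Pol II were 38 for Larp7, 22 of them in HK1, and 38 for Hexim1, 21 of them in HK1.

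Past the 3′ end, up to 5 kb, Pol II, Larp7, Hexim1 and Cdk9 each had a peak placed there in 7 of the 10 genes. Peaks already placed at a start or in the body were left out of these counts, here and in the background. A Pol II body peak of PKM and a Hexim1 start peak of ALDOA also reached into the zone, over 1980 and 5000 bp. Of the coding genes with Pol II at a start, 47.2% had Pol II there, 55.7% Larp7, 62.9% Hexim1 and 44.2% Cdk9. KAP1 had one in 4, against 30.9%. Pol II covered 29.9% of this zone in the glycolysis genes against 11.7%, and Hexim1 37.7% against 23.2%. Larp7 covered 27.1% against 18.5%, Cdk9 13.6% against 11.1% and KAP1 5.78% against 7.68%. Neighbouring genes reach into many of these zones. With the parts inside another gene or within 1 kb of another gene's start left out, 3 of the 10 had a Pol II peak there, against 18.5% of coding genes with Pol II at a start, and 1 had KAP1, against 7.78%.

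The zone past ENO1 holds no other annotated gene, and Pol II covered 51.9% of it in 6 peaks with folds of 6.38 to 9.58. KAP1 and Hexim1 were beside one of these, Hexim1 alone beside 4 and neither Larp7 nor Cdk9 beside any. ALDOA also had 6 Pol II peaks, covering 71.9% of its zone, and 1 Hexim1 peak spanned all of it. The last of these Pol II peaks, of fold 65.3, reaches beyond the zone and covers the start of PPP4C, 5521 bp past ALDOA. GAPDH had 3 Pol II peaks with folds of 5.69 to 6.31, each overlapped by all 4 other factors, in a stretch where the convergent gene IFFO1 overlaps. LDHA had a 932 bp Pol II peak of fold 14.4, from 78 to 1009 bp past its end, that no other factor overlapped, and the next one, of fold 10.5, covers the start of LDHC.

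Other strong peaks in these zones lay at neighbouring starts. Past SLC2A1 a Pol II peak of fold 91.0 covers the start of an unnamed long noncoding RNA, and past GPI one of 87.8 covers that of PDCD2L. The zone of PFKP holds starts of PITRM1. HK1 and HK2 had no Pol II peak past their ends.

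**Figure D5:**
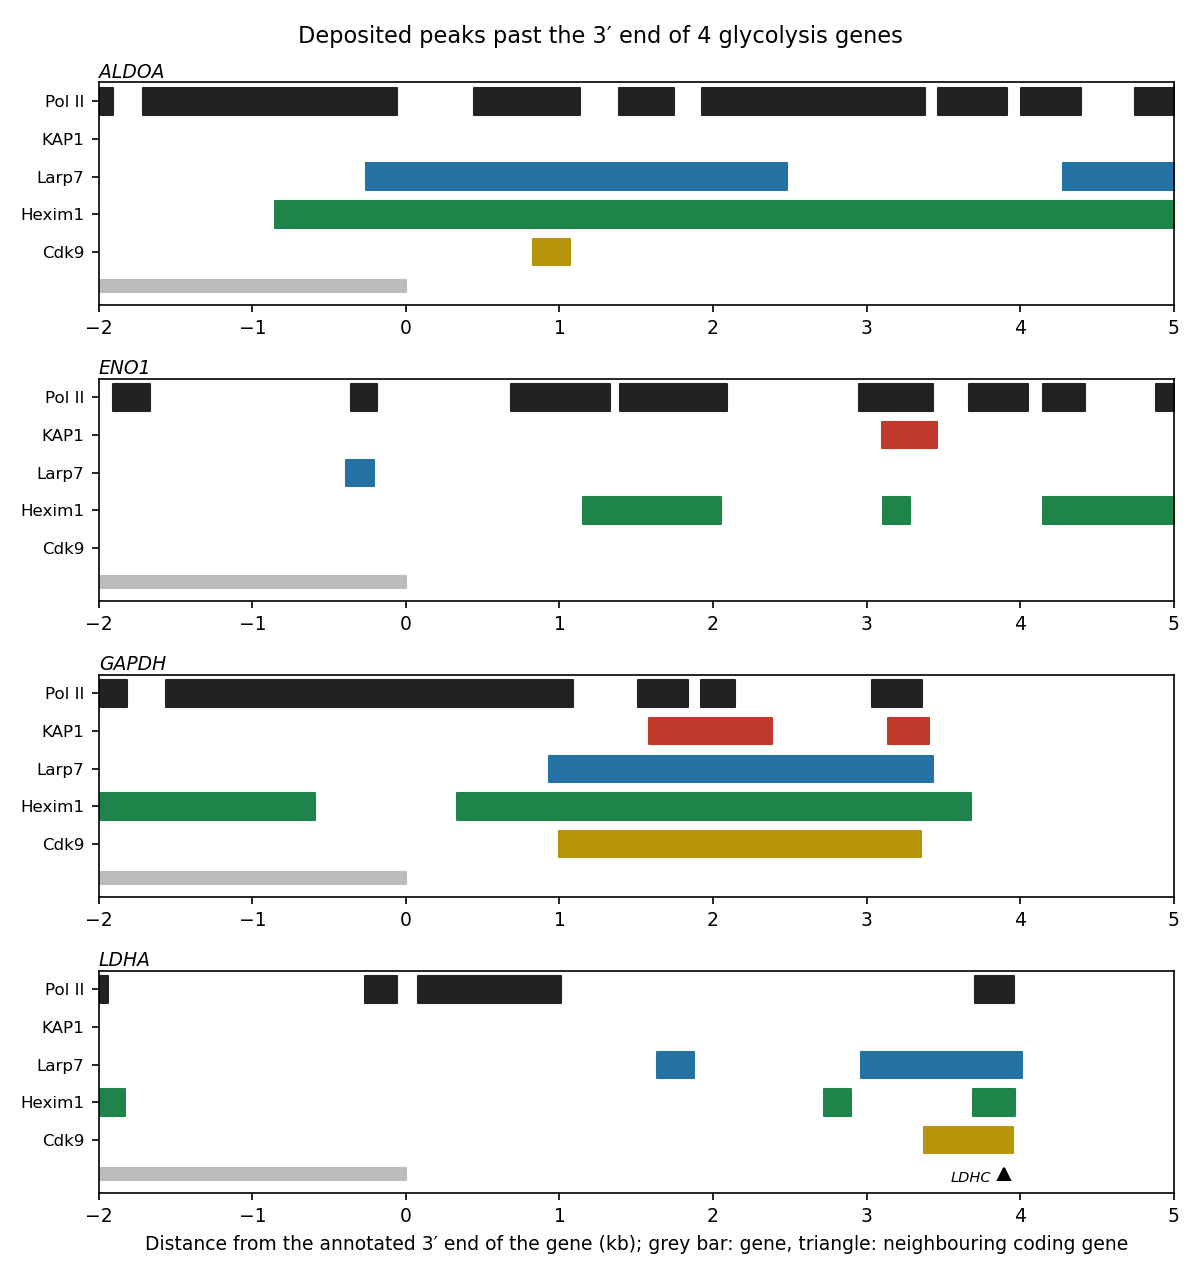
Boxes are deposited peaks of the 5 lists around the 3′ ends of ALDOA, ENO1, GAPDH and LDHA, with the distance from the gene's end in kb on the x axis, the gene as a grey bar and the first start of a neighbouring coding gene within 5 kb as a triangle. ENO1 shows 6 Pol II peaks past its end with KAP1 at one, and LDHA shows a Pol II peak of 932 bp with no other factor on it.

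The wider pathway list held 37 further genes, of which 34 lie on chromosomes 1 to 22 (PGK1, PDK3 and PFKFB1 do not). Pol II stood at a start of 31 of the 34, KAP1 of 26, Larp7 of 32, Hexim1 of 33 and Cdk9 of 31, and all 5 stood at 26. Of all coding genes, 78.6% had Pol II, 74.0% KAP1, 83.4% Larp7, 85.8% Hexim1, 78.5% Cdk9 and 70.0% all 5. By step, all 5 stood at 7 of 9 further genes of sugar uptake and upper glycolysis and at 8 of 12 of lower glycolysis and lactate handling. They stood at 11 of 13 of the side branches and control. Each count is to be read beside the same 70.0%.

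The highest Pol II folds among these were 162 at ENO3, the muscle enolase, 148 at PFKFB3, which makes the allosteric activator of phosphofructokinase, and 128 at HIF1A, the oxygen-regulated subunit of hypoxia-inducible factor. The highest KAP1 folds were 6.75 at TPI1, triosephosphate isomerase, 6.72 at ADPGK, an ADP-dependent glucokinase, and 6.62 at SLC16A3, a lactate exporter. Starts of other genes under the peaks of these further genes were not listed, so a fold may belong to a neighbouring gene. With Pol II but without KAP1 were HKDC1, ALDOC, LDHC, BPGM and G6PC3. HKDC1 also lacked Cdk9, and BPGM also lacked Larp7 and Cdk9. PKLR, the liver and red cell pyruvate kinase, and PCK1, of gluconeogenesis, had Larp7, Hexim1 and Cdk9 without Pol II, and PGK2, known from testis, had none of the 5.

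By the 5 percentiles of their strongest start peaks, the coding genes outside the pathway nearest to the glycolysis genes' medians were CLIC4, PRKCA and FAM81A, at distances of 6.25, 7.74 and 8.38 percentile points. Their Pol II percentiles were 79.9, 82.8 and 81.8, against the glycolysis genes' median of 84.0, and their KAP1 percentiles 70.3, 62.0 and 72.5 against 66.8. The likeness is over 5 lists from 1 library each.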

How the data were processed

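The submitters' processing notes name Bowtie 1.1, hg19 and MACS2. The sources used here do not give the control library, the read depth or the settings of peak calling, and name no pooling: there is 1 list per sample. The deposited lists give a fold for each peak, the authors' ratio over background, its p-value and q-value as −log10, and a score, which was not used. Pol II peaks are narrow and have summits, whereas the other 4 lists are broad, which affects widths and overlaps.

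Coordinates are 1-based on GRCh37, with genes from GENCODE release 44 on that build. A peak was placed first at a start window, then in the body, then past the 3′ end, and overlap meant at least 1 bp. Scripts used Python 3.11.15, numpy 2.4.6, scipy 1.17.1, matplotlib 3.10.9 and pysam 0.24.0, and the overlap code was tested on simulated data. With 1 library per antibody no test was run: values are counts, percentiles within a list and exact (Clopper-Pearson) 95% intervals, which cover counting error only. The RefSeq promoter table is on GRCh38 and was not used.

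The glycolysis genes and the gene lists were chosen with earlier results of these data known. All 10 genes are named. Of the 37 further pathway genes, those with Pol II that lack another factor, those without Pol II, and the 3 with the highest Pol II and KAP1 folds are named, with the 3 coding genes of most similar percentiles and neighbours at shared starts or 3′ ends. Alternatives were stricter or equal-length peak sets, other windows, zones, start sets, overlap rules and peak joining. Those for sharing at body Pol II peaks, and its background by Pol II coverage, were added after the data were seen.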

Additional observations from a re-analysis of the deposited data

How the results depend on the processing

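Over 328 comparisons of a value with an alternative, 266 stayed close to the values given and 62 moved. Counted apart from these, 188 comparisons reread the fold of the same start peaks and so could hardly move. A further 12 start folds were lost with their peak. Most movement came from keeping fewer peaks. The cut on q that follows keeps 75.4% of Pol II, 14.0% of KAP1, 18.5% of Larp7, 20.0% of Hexim1 and 4.42% of Cdk9 peaks. Lower counts alone therefore do not set the glycolysis genes apart. Under this cut, the share of all coding genes at any start was 18.9% for Cdk9 and 12.2% for all 5 factors. Apart from overlap on body Pol II peaks, the other counts have no such share beside them. At a −log10 q of at least 5, glycolysis genes with a peak at the 5′ end numbered 5 for KAP1, 3 for Cdk9 and 3 for all 5 factors, and at any start 3 for Cdk9 and 3 for all 5. Starts with Cdk9 made up 19.1%. A KAP1 body peak was left in 1 gene, Larp7 and Hexim1 in 3 each and Cdk9 in 0, with 0.0693% of body bases under KAP1, 2.36% under Larp7, 4.87% under Hexim1 and 0.0% under Cdk9. Past the 3′ end KAP1 was left at 1 gene and Cdk9 at 1. The further pathway genes with KAP1 numbered 9, with Cdk9 7 and with all 5 factors 6. Body Pol II peaks were overlapped by KAP1 in 2.13%, Larp7 in 21.3%, Hexim1 in 31.9% and Cdk9 in 0.0%, against 4.86%, 51.8%, 66.2% and 3.15% in all coding genes with Pol II at a start.

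With the 20000 strongest peaks of each list, 4 genes had Larp7 and 4 all 5 factors at the 5′ end, and 5 had Larp7 and 5 all 5 at any start, with Larp7 at 32.9% of starts. Body peaks were in 4 genes for Pol II, 1 each for KAP1, Larp7 and Hexim1, and 3 for Cdk9, covering 2.39%, 0.122%, 0.309%, 0.945% and, for Cdk9, 1.1%. Past the 3′ end KAP1 was at 2 genes, and Larp7, Hexim1 and Cdk9 at 3 each. Of the further pathway genes 15 had KAP1, 15 Larp7, 17 Cdk9 and 6 all 5. Sharing was 0.0% with KAP1, 0.0% with Larp7 and 9.09% with Hexim1, over 11 Pol II body peaks, against 28.8%, 42.6% and 46.4% in all such coding genes. With Cdk9 it was 27.3% against 34.8%. The counts of genes and the coverage under these shortened lists have no matching value over all coding genes, so they were not weighed against it.

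Without PFKP, sharing was 6.98% with KAP1 and 18.6% with Cdk9. Placing peaks by their middle left Hexim1 at 5 and all 5 factors at 4 of the gene 5′ ends. Starts of protein-coding transcripts alone gave 5 genes with a KAP1 body peak. Merging peaks within 1 kb raised Pol II body coverage to 11.2%. Past the 3′ end, a zone of 10 kb gave KAP1 at 7 genes, and leaving out the parts in or near another gene gave Pol II at 3, KAP1 at 1, Larp7 at 2, Hexim1 at 2 and Cdk9 at 1. A share over coding genes is given above for the KAP1 body count and for Pol II and KAP1 clear of other genes. The other gene counts here, and the merged coverage, have none and were not weighed against coding genes at large. The median Pol II summit lay 864.5 bp from the annotated 5′ end and 55.5 bp from the canonical start. No paired analysis was possible because each antibody has 1 library and no test was run. Read depth is unknown, so peaks missing from a list may lie below its detection limit.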
